A study of Mus musculus with 6 samples.

Results

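A set of 10 mouse genes that handle irinotecan was followed: the carboxylesterase genes Ces1d, Ces2e and Ces2g, the UDP-glucuronosyltransferase genes Ugt1a6a and Ugt1a7c, the beta-glucuronidase gene Gusb, and the efflux transporter genes Abcb1a, Abcb1b, Abcc1 and Abcg2. They were named from the drug's pathway and taken from the expression table by gene symbol. All 10 had a row among its 25251 genes, and 7 passed the filter on low values described below. Irinotecan is a prodrug. Carboxylesterases cleave it to its active metabolite, a topoisomerase I inhibitor, UDP-glucuronosyltransferases attach glucuronic acid to that metabolite and so inactivate it, and beta-glucuronidases can remove the sugar again. ATP-binding cassette (ABC) transporters pump drug and metabolites out of cells. Liver and intestine are the tissues best known for the activating and conjugating enzymes, whereas the transporters are found in many tissues and in tumour cells.

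Bulk RNA sequencing covered 6 subcutaneous CT26 tumours, of which 3 had received irinotecan (CPT-11) and 3, the controls, only the solvent. CT26 is a mouse colon carcinoma line, grown here under the skin of BALB/c mice, and both groups carry the same line and are labelled wild type. Dosing was intraperitoneal, 25 mg/kg once every 4 days, and began after randomization at a tumour volume of 100 mm3. No source used here states how long after the final dose tumours were taken. The series text speaks of duplicates while the labels list 3 samples per group, and no label ties each sample to its own mouse, so the p-values reflect variation among these samples that may be technical.

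Values are normalized counts, that is, reads per gene divided by 1 factor per library. The libraries held 13940650 to 15656894 reads. Irinotecan replicate 1 stood apart from the rest: it had reads for 19040 genes, against 20571 to 21426 in the others, and across genes the correlation of log2 values was 0.9324 to 0.9406 in the 5 pairs that include it and 0.9748 to 0.9846 in the other 10 pairs. Genes longer than 8000 bases stood 0.36 above the control average in it on the log2 scale (median), against -0.031 to 0.035 in the other 5, and genes with over 60% GC stood at -0.76 in it, against -0.089 to 0.078 in the other 5. Results are therefore given with and without it. Of the colon epithelial markers, Krt20 had 1943, 1665 and 1655 normalized counts in the irinotecan libraries and 1759, 1608 and 2098 in controls, whereas the defining epithelial genes Epcam, Cdx2 and Vil1 were between 0 and 4.84 in all 6. The label of a colon cancer cell comes from the name of the line, not from these genes. Of the 11 intestinal epithelial markers with a row, 5 passed the filter: Krt20 and, at lower levels, Krt18, Lgals4, Krt8 and Cdh17. In such bulk samples, fewer cells of a type and less RNA per cell cannot be told apart.

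**Figure D1:**
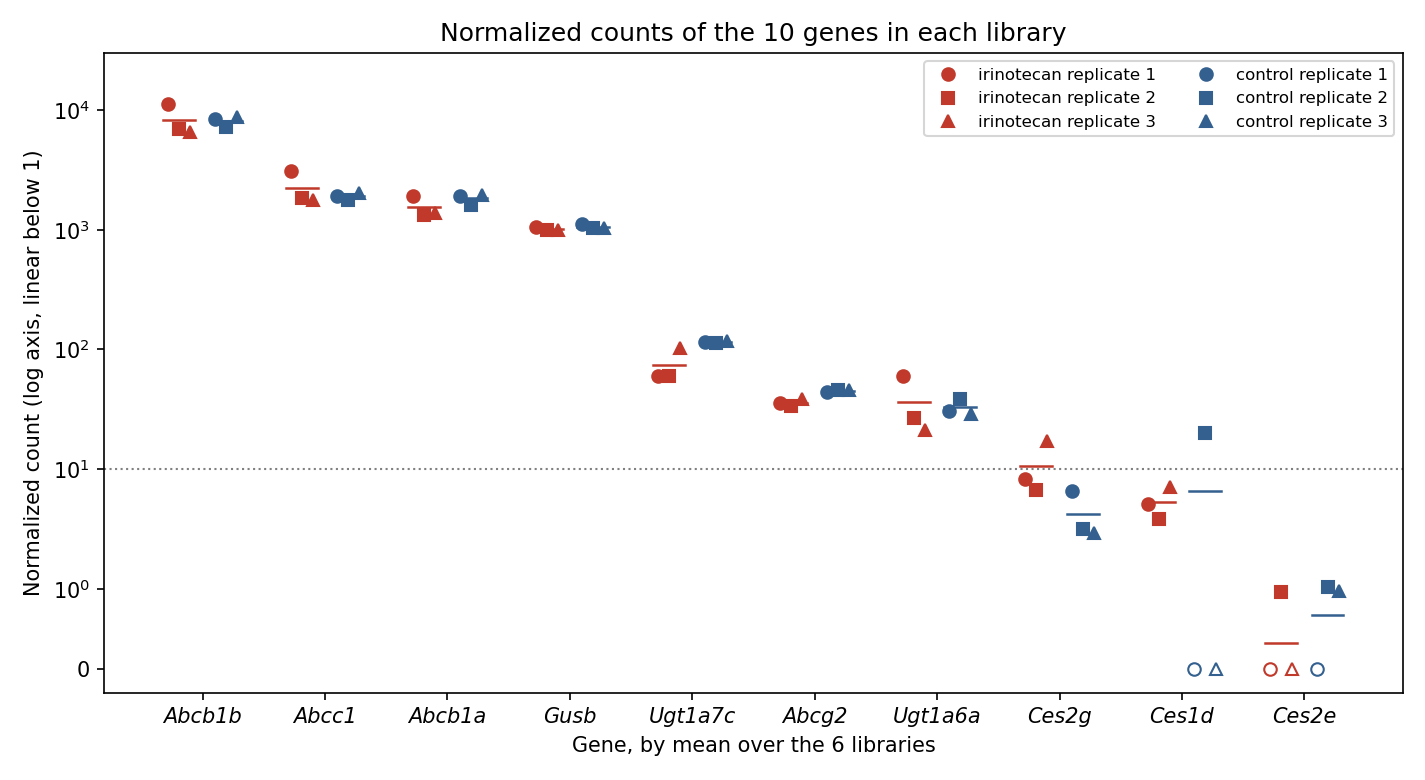
Normalized counts of the 10 genes in each library, on an axis that is logarithmic above 1 and linear below it. Red symbols are irinotecan libraries and blue ones controls, circles, squares and triangles are replicates 1, 2 and 3, short lines are group means, open symbols are values of 0 and the dotted line is the minimum mean of 10 for testing. Abcb1b lies highest, at 6504 to 11286, and the carboxylesterase genes lie lowest, at 0 to 19.9.

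The transporters dominated the set. Per kilobase of deposited gene length, the mean level over the 6 libraries was 1026 normalized counts for Abcb1b, 308 for Abcb1a, 228 for Gusb and 137 for Abcc1. It was 22.5 for Ugt1a7c, 8.02 for Ugt1a6a, 4.98 for Abcg2, 2.53 for Ces1d, 2.09 for Ces2g and 0.184 for Ces2e. In this order, Abcb1b, Gusb, Abcc1, Ugt1a7c and Ces2g each had all 6 libraries above those of the next gene. For Ugt1a7c this was by little, with a lowest value of 14.12 against a highest of 14.05 for Ugt1a6a. The ranges over the 6 libraries overlapped for Abcb1a and Gusb, Ugt1a6a and Abcg2, Abcg2 and Ces1d, and Ces1d and Ces2g. Within every single library, Abcb1a still lay above Gusb and Ugt1a6a above Abcg2 by this length. The other overlapping pairs changed order between libraries. Of the genes tested, 96.0% had a lower level per kilobase than Abcb1b, 82.2% than Abcb1a, 75.2% than Gusb and 61.5% than Abcc1, against 22.1% for Ugt1a7c, 9.91% for Ugt1a6a and 5.59% for Abcg2. The 4 transporters took 91.3% of the reads of the 10 genes with irinotecan and 90.7% in controls, and Abcb1b alone took 62.4% with irinotecan and 62.0% in controls. The deposited length counts every annotated exon base of a gene, 15092 for Abcc1, and by the longest annotated transcript instead the means were 1903 for Abcb1b, 386 for Gusb, 337 for Abcb1a and 305 for Abcc1, so Gusb then came before Abcb1a. Whether the single libraries of neighbouring genes stayed apart under that length was not examined.

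The comparison of irinotecan with control asked whether the tumours carried more or less RNA for these enzymes and pumps under the drug. Over the 14639 genes that averaged 10 or more normalized counts, limma on log2(normalized count + 1) called none at a Benjamini-Hochberg adjusted p under 0.05, so 0 of the 7 genes tested were called, at a background of 0%. Unadjusted p-values under 0.05 were found for 844 genes, 5.77% of those tested, and among the 7 for Ugt1a7c only, on the lower side. By direction, 0 of the 7 were on the higher side, at a background of 2.68%, and 1 of 7 on the lower side, at 3.08%. By edgeR and limma-voom on the recovered reads 0 genes were called as well, and by DESeq2 46 were, with none of the 7 among them. All 3 irinotecan libraries lay below all 3 controls for Ugt1a7c and Abcg2, 2 of 7, against 7.89% of all genes tested, and above them for 0 of 7, against 6.68%. In the authors' deposited table, in which 0.186% of genes had an adjusted p under 0.05, the smallest adjusted p among the 10 genes was 0.819, for Ugt1a7c.

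**Figure D2:**
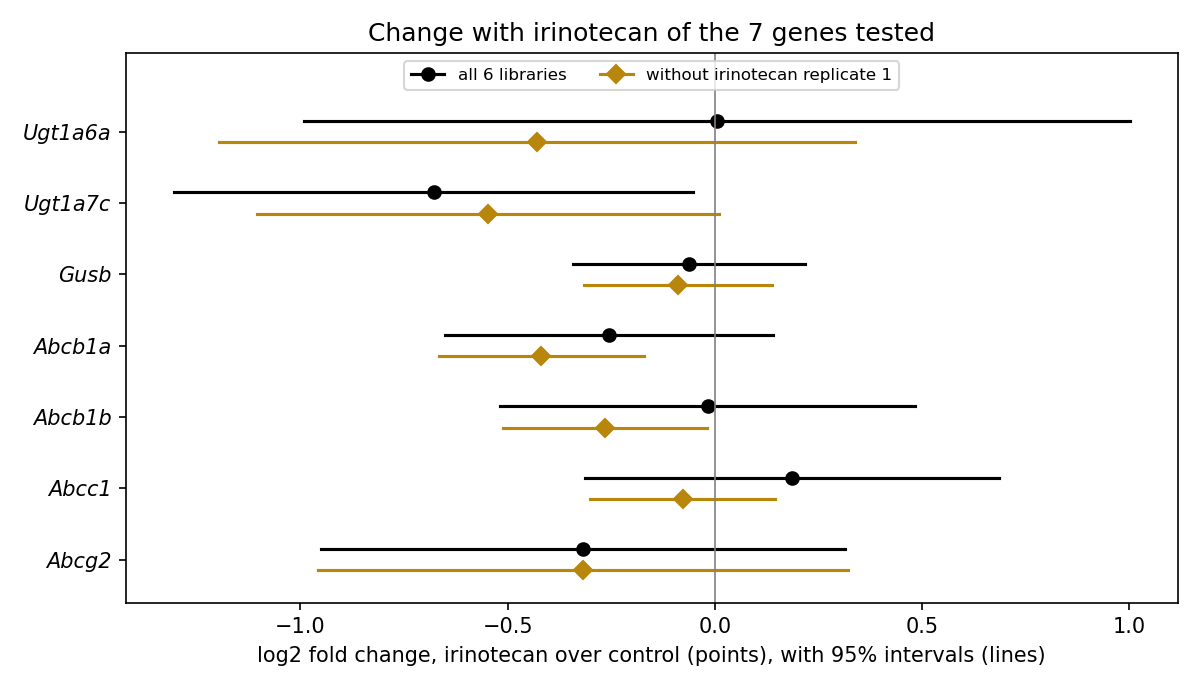
The log2 fold change, irinotecan over control, of the 7 genes tested, with all 6 libraries (black circles) and without irinotecan replicate 1 (gold diamonds). Lines are unadjusted 95% intervals from limma. With all libraries the interval leaves out 0 only for Ugt1a7c (-1.31 to -0.05), and without the replicate only for Abcb1a (-0.67 to -0.17) and Abcb1b (-0.51 to -0.02). Of all genes tested, 5.77% had an unadjusted limma p under 0.05 with all libraries and 9.5% without the replicate.

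The activating carboxylesterases were close to the limit of detection. Their genes lie in 2 clusters on chromosome 8 of GRCm38, Ces1d at 93166068 to 93197838 on the minus strand beside Ces1c and Ces1e, and Ces2e at 104926260 to 104934672 and Ces2g at 104961718 to 104969537 on the plus strand with Ces2f between them. Ces2g, one of several mouse relatives of the human intestinal carboxylesterase CES2, had 8.21, 6.74 and 17.2 normalized counts with irinotecan, against 6.54, 3.14 and 2.90 in controls. The groups did not overlap, with irinotecan higher, but irinotecan replicate 2 lay only just above control replicate 1. Of the genes past the filter, which Ces2g did not pass, 6.68% had all 3 irinotecan libraries above all 3 controls. These values rest on 8, 7 and 17 reads with irinotecan and 7, 3 and 3 in controls. Summed, the 32 reads with irinotecan have an exact 95% Poisson interval of 21.9 to 45.2 and the 13 in controls one of 6.92 to 22.2. These intervals cover counting error only, and their narrow overlap, from 21.9 to 22.2, does not test the difference. In a fit without the low-value filter its log2 fold change was 1.14 (SE 0.66, limma unadjusted p = 0.114, adjusted p = 0.797).

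Ces1d, a carboxylesterase that also hydrolyses stored triglyceride in liver and fat, had 5.13, 3.85 and 7.09 normalized counts with irinotecan, against 0, 19.9 and 0 in controls. All 3 irinotecan libraries held a few reads, while all 19 control reads came from control replicate 2. A count of 0 allows up to 3 reads, or 2.80 and 2.90 normalized counts in control replicates 1 and 3. In that library the 10 adipocyte markers with a row summed to 1261 normalized counts, against 1560 and 1246 in control replicates 1 and 3. Pnpla2 made up most of the 1261, at 731. The 6 adipocyte markers below the filter had at most 5.61 in any control. Among controls, Adipoq, Cidec and Cfd were highest in replicate 2 (3.14, 2.09 and 3.14), Plin1 and Slc2a4 lowest (both 0), and Retn lay between. The 6 hepatocyte markers with a row summed to 22.0 in that library, against 15.0 and 8.71. The part of fat or liver cells in the Ces1d value was not tested. Ces2e, a liver and intestinal enzyme in mice, had 0, 1 and 0 reads with irinotecan, against 0, 1 and 1 in controls, so no difference was detectable at this depth.

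Other genes of this step were also low. Of 20 listed carboxylesterases with butyrylcholinesterase, 8 matched a row by symbol, the other 12 were not analysed here, and 3 passed the filter. None was called in either direction, and the median log2 fold change of those 3 was 0.050, against -0.014 over all genes tested, and -0.18 without irinotecan replicate 1. Ces1g had 34.9, 18.3 and 24.3 normalized counts with irinotecan, against 29.0, 40.8 and 11.6 in controls. Ces1f had 41.1, 25.0 and 23.3 with irinotecan, against 31.8, 8.36 and 27.1 in controls. Ces5a had 0, 13.5 and 15.2 with irinotecan, against 27.1, 19.9 and 14.5 in controls. In all 3 genes the groups overlapped, and the log2 fold change of Ces5a was -1.76 with all libraries and -0.45 without irinotecan replicate 1, in which it had no reads. Ces5a averaged 9.56 normalized counts with irinotecan and 20.5 in controls. It passed the filter only through the controls, so its lower side was partly set by the filter, and the medians above include it. Of 12 hepatocyte markers 6 matched a row and none passed the filter, with Alb between 0 and 1.01 and a summed level of 7.71 to 14.2 with irinotecan and 8.71 to 22.0 in controls.

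Glucuronidation of the active metabolite is carried out by the Ugt1a cluster on chromosome 1. Each enzyme of the cluster has its own promoter and first exon, which encodes the substrate-binding part, spliced to exons that all of them share. On GRCm38, Ugt1a7c spans 88095062 to 88220002 and Ugt1a6a 88134809 to 88218997, both on the plus strand. The 250 bases before the RefSeq start of each gene (GRCm38.p6, plus strand, chr1:88094751-88095000 for Ugt1a7c and chr1:88134559-88134808 for Ugt1a6a) are shown because the 2 genes have separate RefSeq starts but share much of their exon sequence. Capitals mark matches on either strand to CCAAT (the CCAAT box), GGGCGG (the GC box), TGACNNNGC (the antioxidant response element), GCGTG (the core of the xenobiotic response element) or CACGTG (the E-box).
Ugt1a7c: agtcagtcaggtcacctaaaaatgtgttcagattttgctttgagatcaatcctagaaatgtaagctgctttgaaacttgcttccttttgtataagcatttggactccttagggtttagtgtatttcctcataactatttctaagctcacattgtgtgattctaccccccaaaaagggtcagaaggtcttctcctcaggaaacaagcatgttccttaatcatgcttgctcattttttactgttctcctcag
Ugt1a6a: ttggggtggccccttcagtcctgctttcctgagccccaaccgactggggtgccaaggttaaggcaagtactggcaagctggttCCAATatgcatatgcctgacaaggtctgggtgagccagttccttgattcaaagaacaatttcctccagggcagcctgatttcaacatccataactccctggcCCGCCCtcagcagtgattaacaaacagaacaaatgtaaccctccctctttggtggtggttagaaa
The Ugt1a6a window held 1 CCAAT and 1 GC box match, and the Ugt1a7c window held none of the 5 motifs and had 38.8% GC, against 51.2% in the Ugt1a6a window. Of 32851 RefSeq windows of this length, 33.8% held a CCAAT match, 32.7% a GC box, 28.2% a GCGTG core, 10.2% an antioxidant response element and 6.02% an E-box. The Ugt1a7c window ends 61 bases before the gene start in the deposited table, and the Ugt1a6a window ends at it.

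Ugt1a7c had 59.6, 59.7 and 103.4 normalized counts with irinotecan, against 115.0, 112.9 and 118.1 in controls. All irinotecan libraries were lower, replicates 1 and 2 by far and replicate 3 by little, while the controls lay close together. The mean was 74.2 ± 25.3 with irinotecan and 115.3 ± 2.6 in controls (SD, n = 3 each), and the log2 fold change was -0.68 (SE 0.27, limma unadjusted p = 0.0370, adjusted p = 0.743). Of the genes tested, 10.1% had a larger absolute log2 fold change. Without irinotecan replicate 1 it was -0.55 (limma unadjusted p = 0.0538, adjusted p = 0.536), where the share of all genes with an unadjusted p under 0.05 was 9.5%. The value kept its sign under all 20 alternatives, from -0.94 to -0.50.

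Ugt1a6a, which in mice conjugates small planar phenols, had 60.6, 27.0 and 21.3 normalized counts with irinotecan, against 30.9, 38.7 and 29.0 in controls. Irinotecan replicate 1 was the highest of the 6 libraries and the other irinotecan replicates were the lowest of them, so the irinotecan values enclosed the controls. The mean was 36.3 ± 21.2 with irinotecan and 32.9 ± 5.1 in controls (SD, n = 3 each), with a log2 fold change of 0.0050 (SE 0.43, limma adjusted p = 0.997). Without irinotecan replicate 1 it was -0.43 (limma unadjusted p = 0.244, adjusted p = 0.742).

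The annotation limits what these counts stand for. The exons of the 9 Ugt1a genes share 1311 bases, and only 45.4% of the exon bases of Ugt1a7c and 49.7% of those of Ugt1a6a belong to no other gene of the cluster. The longest coding transcript of Ugt1a6a (2297 bases) occurs letter for letter inside that of Ugt1a7c (3302 bases), so reads over all of it can come from either gene. The first exon of that Ugt1a6a transcript is thus also part of a Ugt1a7c transcript, so the separate RefSeq starts do not separate reads of the 2 genes. In all, 2170 exon bases of Ugt1a6a and 2304 of Ugt1a7c are shared with another gene. The unshared bases of Ugt1a7c are 917 bases of first exon and 998 bases, from 88219005 to 88220002, at the end of the last exon beyond the annotated end of the other 8 genes. Those of Ugt1a6a include stretches of 619, 255 and 1046 bases that lie between the shared exons, in introns of the other genes. No source used here states how reads over shared bases were counted, and reads from another gene of the cluster in these stretches would be counted for Ugt1a7c or Ugt1a6a. Both genes also overlap the antisense gene Gm20528, and with no strand setting stated its reads cannot be told apart from theirs. The other genes of the cluster with a row had next to none: Ugt1a1, the gene of the main enzyme for the active metabolite in humans, had 6 reads summed with irinotecan and 1 in controls. Ugt1a10 had 1 read with irinotecan and 5 in controls, and Ugt1a5 had 2 with irinotecan and 3 in controls. Ugt1a6b and Ugt1a2 had 0 with irinotecan, against 5 and 4 in controls.

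**Figure D3:**
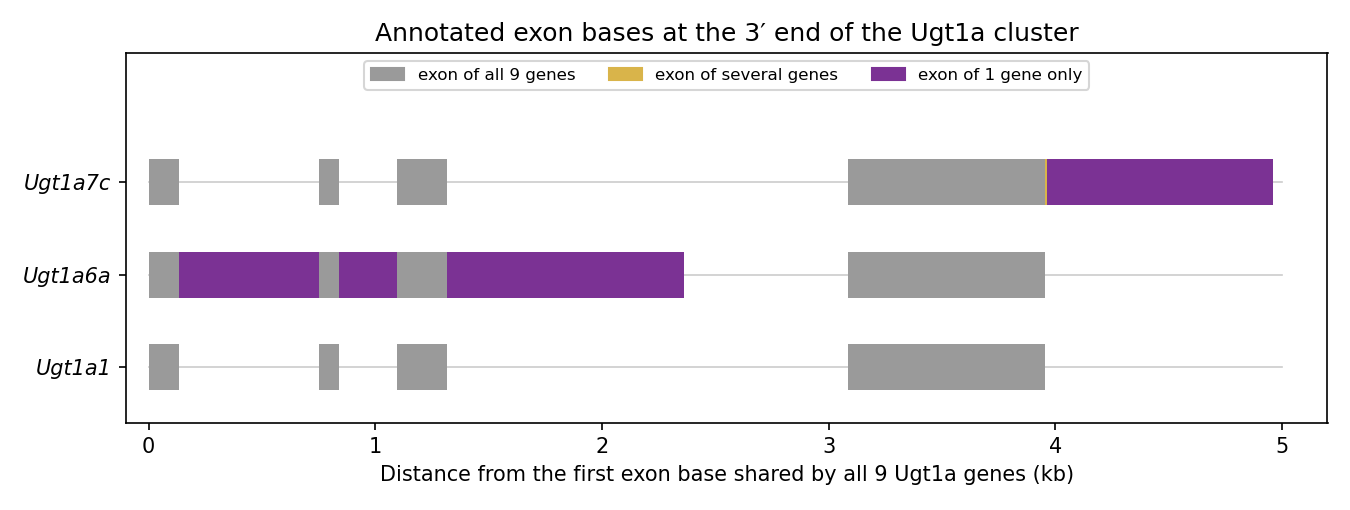
Annotated exon bases at the 3′ end of the Ugt1a cluster, for Ugt1a7c, Ugt1a6a and, as an example of the others, Ugt1a1, by distance in kilobases from the first exon base that all 9 genes share. Grey bars are exon bases of all 9 genes, ochre ones of several genes and purple ones of a single gene. The 998 bases of Ugt1a7c at the far end and the stretches of Ugt1a6a between grey bars belong to no other gene of the cluster.

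Ugt1a6a and Ugt1a7c varied most among the 7 genes tested, with a larger SD over the 6 libraries than 77.0% and 74.1% of all genes tested. The genes nearest to Ugt1a6a, by the mean absolute difference between centred log2 values over 6 libraries and 14638 genes, were Ndrg1 (0.062), the pseudogene Bnip3l-ps (0.086) and the chloride channel gene Clic5 (0.105). Ndrg1 had 10040, 4044 and 3223 normalized counts with irinotecan, against 4955, 6445 and 4694 in controls, again with irinotecan replicate 1 highest. Nearest to Ugt1a7c were Zfp422 (0.0998), Adprm (0.102) and the endothelial receptor gene Tie1 (0.106). Tie1 had 134.5, 112.7 and 168.2 normalized counts with irinotecan, against 216.0, 208.1 and 238.2 in controls, again with all irinotecan libraries below all controls.

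Of the list for supply of the sugar donor, 5 enzymes averaged 206.8 to 577.3 normalized counts per kilobase over the 6 libraries, and Slc35d1, a transporter of UDP-glucuronic acid, 37.7. Ugdh, which makes UDP-glucuronic acid, had 4291, 3750 and 3285 normalized counts with irinotecan, against 4112, 3795 and 4153 in controls. Pgm1, a phosphoglucomutase, had 1095, 977 and 878 with irinotecan, against 1098, 1083 and 1197 in controls. Uxs1, which turns UDP-glucuronic acid into UDP-xylose, had 1080, 1035 and 913 with irinotecan, against 1013, 981 and 1302 in controls. None of the 6 genes of this list was called, 2 had a positive and 4 a negative log2 fold change, and the median was -0.059. The groups overlapped in all 6. The median was -0.20 without irinotecan replicate 1, where Pgm1 and Pgm2 had unadjusted limma p-values of 0.0252 and 0.0462 on the lower side, at a background of 9.5% for both directions.

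Gusb, the lysosomal beta-glucuronidase that takes glucuronic acid off glycosaminoglycans and other glucuronides, lies on chromosome 5 at 129989011 to 130003049 on the minus strand. It had 1052, 992 and 996 normalized counts with irinotecan, against 1112, 1029 and 1036 in controls. The groups overlapped, and the 6 values lay close together: 0.772% of the genes tested had a smaller SD of log2 values over the libraries. The mean was 1014 ± 34 with irinotecan and 1059 ± 46 in controls (SD, n = 3 each), and the log2 fold change of -0.063 (SE 0.12, limma adjusted p = 0.877) had an unadjusted 95% interval of -0.34 to 0.22. Gusb in irinotecan replicate 1 was within the range of the other libraries, unlike Abcc1 and Abcb1b below.

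Of the 23 lysosomal glycosidases and glycosaminoglycan enzymes listed with Gusb, all passed the filter, none was called, and 9 had a positive and 14 a negative log2 fold change, with a median of -0.038. Ids, which removes sulphate from glycosaminoglycans, had 2586, 1817 and 1905 normalized counts with irinotecan, against 1334, 1748 and 1669 in controls (log2 fold change 0.40, SE 0.18, limma adjusted p = 0.743). Galc, a galactosylceramidase, had 181.7, 156.0 and 176.4 with irinotecan, against 200.1, 225.8 and 232.4 in controls (log2 fold change -0.35, SE 0.18, limma adjusted p = 0.743). These were the 2 genes of the list whose groups did not overlap, 1 in each direction, where the background was 14.6% for both directions together. Ctsa, the protective protein of lysosomal galactosidase, had 879, 1942 and 1721 with irinotecan, against 2218, 2054 and 1823 in controls. Its log2 fold change was -0.50 with all libraries and -0.15 without irinotecan replicate 1, and that of Ids 0.24 without it. Hpse, heparanase, had the highest level of the list per kilobase, at 835 normalized counts.

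Efflux was represented by 4 transporters. Abcb1a and Abcb1b both encode P-glycoprotein, which in humans comes from a single gene, and lie side by side on the plus strand of chromosome 5, Abcb1a at 8660077 to 8748575 and Abcb1b at 8798147 to 8866315. Their longest coding transcripts aligned over 4029 columns with 87.2% identity, and 15.5% of the 50-base windows of Abcb1a also occurred in Abcb1b, so some reads can come from either. The 250 bases before each RefSeq start (GRCm38.p6, plus strand, chr5:8566841-8567090 for Abcb1a and chr5:8797897-8798146 for Abcb1b) are shown because the neighbours differ in level, with the same motifs in capitals.
Abcb1a: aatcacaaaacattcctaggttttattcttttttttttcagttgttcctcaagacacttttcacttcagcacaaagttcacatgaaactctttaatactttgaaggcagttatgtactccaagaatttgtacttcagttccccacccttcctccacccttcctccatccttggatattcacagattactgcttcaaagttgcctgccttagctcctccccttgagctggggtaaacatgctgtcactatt
Abcb1b: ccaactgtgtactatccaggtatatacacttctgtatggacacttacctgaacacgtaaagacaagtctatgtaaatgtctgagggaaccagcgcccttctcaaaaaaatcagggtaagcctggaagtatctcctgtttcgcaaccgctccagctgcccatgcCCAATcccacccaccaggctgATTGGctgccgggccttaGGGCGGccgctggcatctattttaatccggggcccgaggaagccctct
The Abcb1b window held 2 CCAAT matches, 1 on each strand, and 1 GC box, and the Abcb1a window held none of the 5 motifs. The Abcb1a window ends 92986 bases before the gene start in the deposited table, whereas the Abcb1b window ends at it. Whether the motifs bear on the difference in level was not tested.

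Abcb1b had 11286, 6988 and 6504 normalized counts with irinotecan, against 8450, 7208 and 8737 in controls. Irinotecan replicate 1 was the highest library and the other irinotecan replicates were the lowest. The mean was 8259 ± 2633 with irinotecan and 8132 ± 813 in controls (SD, n = 3 each), and the log2 fold change was -0.018 (SE 0.22, limma adjusted p = 0.979). Abcb1b was the 185th most abundant of the 14639 genes tested by mean normalized count. Without irinotecan replicate 1 its log2 fold change was -0.27 (SE 0.11, limma unadjusted p = 0.0370, adjusted p = 0.489), where 9.5% of all genes had an unadjusted p under 0.05.

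Abcb1a had 1915, 1337 and 1386 normalized counts with irinotecan, against 1905, 1610 and 1965 in controls. Irinotecan replicate 1 lay among the controls and the other irinotecan replicates lay below all of them. The mean was 1546 ± 321 with irinotecan and 1827 ± 190 in controls (SD, n = 3 each), with a log2 fold change of -0.25 (SE 0.17, limma unadjusted p = 0.177, adjusted p = 0.743). Without irinotecan replicate 1 it was -0.42 (SE 0.11, limma unadjusted p = 0.00322, adjusted p = 0.220), where 9.5% of all genes had an unadjusted p under 0.05. By DESeq2 without that replicate the adjusted p of Abcb1a was 0.0828, the smallest over its alternatives, which reached 0.989. The sign was the same under all 20 alternatives, from -0.43 to -0.16.

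The ratio between the neighbours does not depend on the library factor, since both counts come from the same library. It was singled out after its values were seen and was not tested. Abcb1b had 5.89, 5.23 and 4.69 times the normalized count of Abcb1a with irinotecan, against 4.44, 4.48 and 4.45 in controls. The irinotecan libraries were all higher and spread widely, and the controls were almost equal. As a share of the reads of the pair, Abcb1b made up 85.5%, 83.9% and 82.4% with irinotecan, against 81.6%, 81.7% and 81.6% in controls. The 95% Wilson interval of irinotecan replicate 3, 81.6% to 83.3%, overlapped those of the controls, which ran from 80.9% to 82.6%, while those of irinotecan replicates 1 and 2 (84.9% to 86.1% and 83.2% to 84.7%) did not. These intervals cover counting error only. Of the exon bases, 553 of Abcb1a are also annotated to the antisense gene Gm42686 and 143 of Abcb1b to the antisense gene Gm5106, and with no strand setting stated their reads cannot be told apart. Abcb1b is also the longer gene (7990 bases against 5480), and in irinotecan replicate 1 long genes were relatively high. The part of this in the ratio was not tested.

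**Figure D4:**
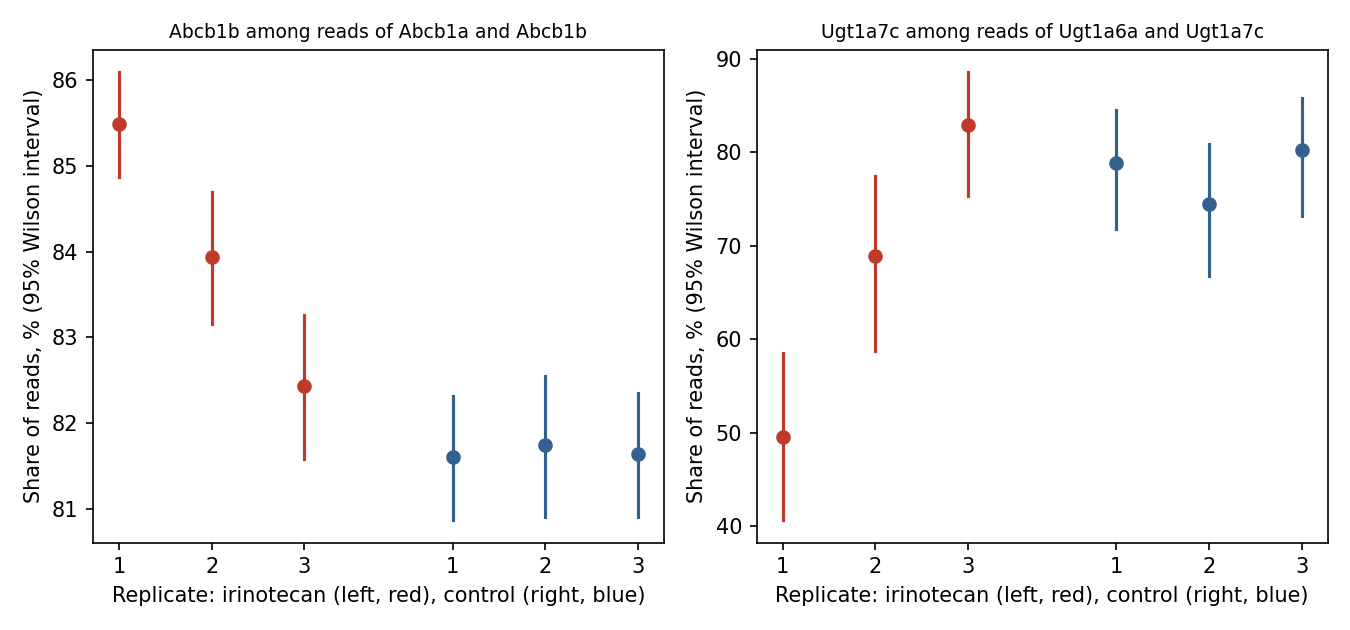
The share of reads from Abcb1b within the Abcb1 pair (left) and from Ugt1a7c within the Ugt1a6a and Ugt1a7c pair (right), in percent, for each library, with 95% Wilson intervals for counting error and irinotecan libraries in red, left of the controls in blue. The axes do not start at 0. The Abcb1b share is 82.4% to 85.5% with irinotecan and 81.6% to 81.7% in controls, and the Ugt1a7c share is 49.6% to 82.9% with irinotecan and 74.5% to 80.3% in controls.

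Abcc1, which encodes the multidrug resistance-associated protein MRP1 and exports glutathione and glucuronide conjugates, lies on chromosome 16 at 14361558 to 14475737. It had 3115, 1837 and 1769 normalized counts with irinotecan, against 1926, 1768 and 2021 in controls. Irinotecan replicate 1 was far above the other 5 libraries, which overlapped. The mean was 2240 ± 759 with irinotecan and 1905 ± 128 in controls (SD, n = 3 each), and the log2 fold change of 0.19 (SE 0.22, limma adjusted p = 0.802) became -0.078 without irinotecan replicate 1 (limma adjusted p = 0.859). With a trend fitted on GC and length removed, the log2 fold change of Abcc1 was 0.066, that of Abcb1b -0.15 and that of Abcb1a -0.35 (limma unadjusted p = 0.0226, adjusted p = 0.692).

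Abcg2, the breast cancer resistance protein and a known exporter of the active metabolite, lies on chromosome 6 at 58584523 to 58695676. It had 35.9, 33.7 and 38.5 normalized counts with irinotecan, against 43.9, 46.0 and 45.5 in controls. All irinotecan libraries were lower and both groups were tight, but the counts were small, 108 reads summed with irinotecan (exact 95% Poisson interval 88.6 to 130.4) and 138 in controls (115.9 to 163.0). These intervals cover counting error only, and their overlap does not test the difference. The mean was 36.1 ± 2.4 with irinotecan and 45.2 ± 1.1 in controls (SD, n = 3 each), with a log2 fold change of -0.32 (SE 0.28, limma adjusted p = 0.761) whose unadjusted 95% interval ran from -0.95 to 0.31. Without irinotecan replicate 1 it was again -0.32, and under all 20 alternatives it lay between -0.47 and -0.26.

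Of 25 listed ABC transporters of the B, C and G families, 24 matched a row, 17 passed the filter and none was called. Of these, 7 had a positive and 10 a negative log2 fold change, with a median of -0.074 (-0.084 without irinotecan replicate 1). Abcc5, an exporter of cyclic nucleotides and nucleotide analogues, had 2660, 1818 and 1857 normalized counts with irinotecan, against 1471, 1588 and 1370 in controls. All irinotecan libraries were higher, and its log2 fold change of 0.50 (SE 0.17, limma unadjusted p = 0.0201, adjusted p = 0.743) was 0.32 without irinotecan replicate 1. Abcc5 and Abcg2 were the 2 genes of the list whose groups did not overlap, 1 in each direction, which makes 2 of 17, against 14.6% of all genes tested. Abcc2, the canalicular exporter of conjugates in liver, had at most 2.03 normalized counts in any library.

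Transporters that take drugs and other anions into cells were also listed. Of 17 listed, 8 matched a row, 6 passed the filter and none was called. In 3 of the 6 all irinotecan libraries lay below all controls, against 7.89% of all genes tested. Slco2b1, an organic anion transporter, had 27.7, 69.3 and 52.7 normalized counts with irinotecan, against 112.2, 98.3 and 86.2 in controls (log2 fold change -1.06, SE 0.36, limma unadjusted p = 0.0171, adjusted p = 0.743), and -0.69 without irinotecan replicate 1. Slco2a1, a prostaglandin transporter, had 72.9, 48.2 and 74.0 with irinotecan, against 87.9, 93.1 and 92.0 in controls. Slco1a5 had 109.9, 79.0 and 90.2 with irinotecan, against 121.5, 128.6 and 120.1 in controls. Slco4a1, the most abundant of the list per kilobase, had 185.8, 208.0 and 235.1 with irinotecan, against 193.5, 276.0 and 214.0 in controls. Slco1a6 had 7.19, 3.85 and 1.01 with irinotecan, against 107.5, 2.09 and 0 in controls, so it passed the filter through control replicate 1 alone, and no median is given for the list.

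No listed gene of oxidation or its regulation was called. In the list of CYP3A enzymes, which inactivate part of the drug, with their electron donor Por, 3 of 10 matched a row and 2 passed the filter. Cyp3a13 had 22.6, 27.0 and 29.4 normalized counts with irinotecan, against 17.8, 4.18 and 21.3 in controls, not overlapping and higher with irinotecan (log2 fold change 1.07, SE 0.60, limma adjusted p = 0.743). Por had 1794, 2347 and 2378 with irinotecan, against 2616, 2705 and 2466 in controls, not overlapping and lower (-0.27, SE 0.15, limma adjusted p = 0.743). That makes 2 of 2 genes tested without overlap, 1 in each direction, against 14.6% of all genes tested. Of 13 xenobiotic sensors, 11 matched a row and 6 passed the filter, with 3 positive, 3 negative and none called. Nfe2l2, the regulator of antioxidant genes, had 2135, 2915 and 2861 with irinotecan, against 3152, 3325 and 3107 in controls, lower in all irinotecan libraries (-0.29, SE 0.15, limma adjusted p = 0.743). It was the only 1 of the 6 sensors tested whose groups did not overlap, against 14.6% of all genes tested. The values of Por and Nfe2l2 were -0.13 and -0.15 without irinotecan replicate 1. Rxrb had 486.7, 784.0 and 742.9 with irinotecan, against 781.5, 771.6 and 729.1 in controls, and Rxra, like it a partner of nuclear receptors, had 934.4, 654.9 and 867.6 with irinotecan, against 705.8, 748.6 and 724.3 in controls. The pregnane X receptor gene Nr1i2, a known inducer of CYP3A and P-glycoprotein, had at most 4.05.

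Markers of other cell types were set beside these genes, and none was called. P-glycoprotein and the product of Abcg2 are known in blood vessels as well as in tumour cells, and Tie1 was among the nearest patterns to Ugt1a7c. The 12 endothelial markers summed to 1918 to 3053 normalized counts with irinotecan and 3516 to 3760 in controls, 11 of the 12 had a negative log2 fold change with a median of -0.59, and in 6 all irinotecan libraries lay below all controls, against 7.89% of all genes tested. The median was -0.37 without irinotecan replicate 1. The 13 macrophage markers summed to 13662 to 30798 with irinotecan and 29426 to 31550 in controls, and all 13 had a negative log2 fold change with a median of -0.41, which was -0.091 without irinotecan replicate 1. Of the neutrophil markers, 8 of 10 matched a row, and they summed to 390.1 to 426.1 with irinotecan and 804.0 to 1060 in controls. Lcn2, Mmp9 and Csf3r made up most of these sums. Ly6g and Ngp matched no row, and Retnlg and Camp lay at 0 to 9.68 in all 6 libraries. The 6 neutrophil markers that passed the filter all had a negative log2 fold change, with a median of -1.32 (-1.51 without irinotecan replicate 1). Of them, 5 had an unadjusted limma p under 0.05, against 3.08% of all genes tested. These counts and the median include Cxcr2, which averaged 4.95 normalized counts with irinotecan and 25.1 in controls. It passed the filter only through the controls, so its lower side was partly set by the filter. The 12 fibroblast and pericyte markers summed to 36082 to 40334 with irinotecan and 31955 to 43350 in controls. The 10 skeletal muscle markers summed to 206.4 to 971.0 with irinotecan and 83.6 to 460.0 in controls, and the 13 T and NK cell markers to 479.5 to 821.6 with irinotecan and 457.0 to 645.1 in controls. By mean normalized count, the most abundant marker was Cdh5 in endothelium (453.8, 522.0 and 675.0 with irinotecan, against 930.2, 827.0 and 844.4 in controls) and Lcn2 in neutrophils (144.8, 103.1 and 68.9 with irinotecan, against 178.6, 306.3 and 373.8 in controls). Their part in the values of Ugt1a7c, Abcg2, Abcb1a and Slco2b1 was not tested.

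**Figure D5:**
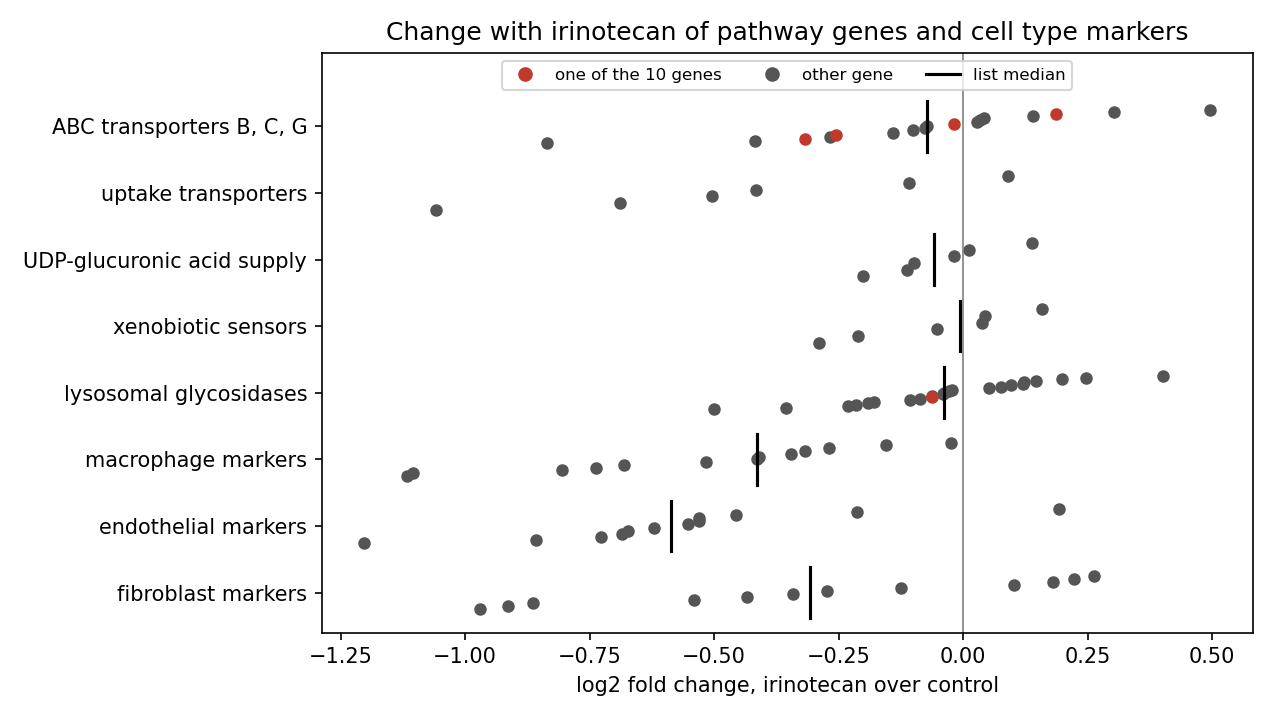
The log2 fold change, irinotecan over control, of each gene past the filter in 5 pathway lists and 3 cell type marker lists. Red points are among the 10 genes, grey points are other genes, vertical bars are list medians and points are spread vertically within a list by rank. With all libraries, the medians of the endothelial (-0.59), macrophage (-0.41) and fibroblast markers (-0.31) lie left of those of the ABC transporters (-0.074) and lysosomal enzymes (-0.038). Without irinotecan replicate 1 (not drawn) the marker medians were -0.37, -0.091 and -0.10. Those of the ABC transporters and lysosomal enzymes were then -0.084 and -0.031. No median is drawn for the uptake transporters, among which Slco1a6 passed the filter through 1 control library.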

How the data were processed

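HISAT2 2.0.5, fastp, CASAVA, DESeq2 1.20.0 and featureCounts 1.5.0-p3, with the GRCm38 (mm10) build, are named without roles, per the submitters' processing notes. No source used here states the annotation release or the strand setting. The authors deposited 1 table of normalized signal per library, read counts divided by 1 factor per library. Per the file headers it also holds the authors' log2 fold changes, p-values and adjusted p-values. Every library value was a whole multiple of the smallest non-zero one (100% of values, tolerance 1e-06), so whole reads were recovered by division. Since no raw counts were given, the main test was limma 3.58.1 in R 4.3.3 with its trend option, on log2(normalized count + 1), for genes with a mean of at least 10, with the group as the only term and Benjamini-Hochberg adjustment over all genes tested. Fold changes on this scale understate changes of low genes. Alternatives included edgeR 4.0.16 and DESeq2 1.42.0 on the recovered reads, and tests were run first on simulated data. The deposited gene length of each of the 10 genes equals its exon bases in GENCODE M21, which also gave GC content. Promoter sequences came from RefSeq. The 10 genes and the lists were chosen with earlier results of these data known. Besides the 10 genes, the rule for naming genes took the 3 with the smallest unadjusted p and the most abundant per kilobase of each pathway list, the most abundant of marker lists, and the 3 nearest patterns of the 2 most variable genes. Ratios, genes near 0 and genes of the Ugt1a cluster were named after their values were seen.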

Additional observations from a re-analysis of the deposited data

How the results depend on the processing

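Without irinotecan replicate 1, the log2 fold change of Abcc1 turned to the lower side, and limma called 2 genes, against 0 with each other library left out in turn (range 0 to 2). With estimated library weights 52 genes were called, with DESeq2 46, with DESeq2 without irinotecan replicate 1 157 and with edgeR without it 2. None of the 7 genes tested reached an adjusted p under 0.05 in the 20 alternatives, and the smallest was 0.0828, for Abcb1a by DESeq2 without irinotecan replicate 1. Ugt1a7c, Gusb, Abcb1a and Abcg2 kept their sign in all of them. With 1 library left out, values ran from -0.43 to 0.30 for Ugt1a6a, from -0.27 to 0.13 for Abcb1b and from -0.078 to 0.33 for Abcc1. Ugt1a6a also reversed with library weights (-0.35), after removing a GC and length trend (-0.052), and without irinotecan replicate 1 in edgeR (-0.44) and DESeq2 (-0.44). Abcc1 reversed with library weights (-0.046) and without that replicate in edgeR (-0.077) and DESeq2 (-0.080), and Abcb1b with DESeq2 (0.022) and with edgeR under DESeq2-type size factors (0.030) and TMM (0.023). The cause was not tested. A replicate block gave 0 calls by limma and 621 genes at an unadjusted p under 0.05, against 844 without it. Deviations of same-numbered libraries correlated at -0.114, -0.0087 and -0.213, so the numbers were not taken to pair samples. The edgeR and DESeq2 analyses without irinotecan replicate 1 on recovered reads and the transcript lengths were added after seeing the data. A planned length from RefSeq transcripts was not run. Depth limits Ces1d, Ces2e and Ces2g, with at most 19 reads in any library.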
